A study of Mus musculus with 14 samples.

Results

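The genes described here encode the proteins of the mitochondrial ribosome, and they were taken from the deposited table of mouse ventricle RNA as every row whose symbol starts with Mrpl or Mrps followed by a digit, with symbols holding -ps left out. They came to 78 of the 14161 genes of the table, 49 with an Mrpl symbol (large subunit) and 29 with an Mrps symbol (small subunit). The rule used the symbols and no measured value. The study sequenced polyadenylated RNA as paired-end libraries from the heart ventricles of 14 male mice, 4 hours after an intraperitoneal injection, with 1 library per mouse. The 4 groups were GX mice given MRL5 (GX MRL5, n = 5), GX mice given DMSO (GX DMSO, n = 4), wild-type mice given MRL5 (WT MRL5, n = 2) and wild-type mice given DMSO (WT DMSO, n = 3). GX mice are labelled GX/GX, so both alleles carry the change that turns the cardiac sodium channel NaV1.5 into the NaV1.5-GX form. MRL5, a compound known only by its code name, potently inhibits that form, and DMSO is the vehicle. All 5 labelled GX MRL5 mice were used, although the design text counts 4. The sources used here give neither age nor strain, nor how the GX allele was made.

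The mitochondrial ribosome makes the few proteins that the mitochondrial genome encodes, all of them core subunits of the respiratory chain and the ATP synthase, on which a beating ventricle depends. Its RNAs come from mitochondrial DNA, while every one of its proteins is encoded in the nucleus, made in the cytosol and imported. Its small subunit binds the messenger RNA and decodes it, and its large subunit joins the amino acids and threads the chain towards the inner membrane. In mammals the genes are scattered over the chromosomes and are known to share promoter elements for NRF1, for ETS factors such as GABP, and for YY1.

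The 78 genes lay on 17 chromosomes, with 11 on chromosome 11 and 8 on chromosome 17. Promoters, taken as 250 bases before to 50 after each listed start of the gene in RefSeq's GRCm38.p6, were matched by symbol for 69 of them. Each was searched on both strands for GCGCANGCG (NRF1), CCGGAAG (ETS) and AAGATGGCG (YY1), and no match of 1 motif overlapped a match of another. A gene with several starts, such as Mrpl48, was counted if any of its promoters held the letters. The NRF1 letters were found for 16 of the 69 genes (23.2%), against 7.03% of 27025 genes with a promoter. The ETS letters were found for 26 of the 69 (37.7%, against 9.93% of all), and the YY1 letters for 8 (11.6%, against 1.64%). At least 1 of the 3 was found for 42 of the 69 genes, or 60.9%, against 16.5% of all genes with a promoter. Those genes were not limited to the genes tested below. A match is a match of letters and does not show that a factor binds there.

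Promoters of 4 genes show the motifs, chosen among the members described below so that each of the 3 motifs is shown. They are those of Mrpl12 (chr11:120484387-120484686, plus strand, NRF1), Mrpl21 (chr19:3282792-3283091, plus strand, ETS), Mrps21 (chr3:95871465-95871764, minus strand, NRF1 and ETS) and Mrpl37 (chr4:107066817-107067116, minus strand, YY1). They are written 5′ to 3′ on the strand of the gene, with the motif in capitals.
Mrpl12: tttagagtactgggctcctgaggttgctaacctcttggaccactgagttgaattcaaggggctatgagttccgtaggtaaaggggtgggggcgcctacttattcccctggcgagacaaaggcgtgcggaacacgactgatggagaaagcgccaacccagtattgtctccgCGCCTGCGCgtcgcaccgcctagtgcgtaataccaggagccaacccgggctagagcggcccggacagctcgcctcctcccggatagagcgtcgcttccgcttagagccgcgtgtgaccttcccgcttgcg
Mrpl21: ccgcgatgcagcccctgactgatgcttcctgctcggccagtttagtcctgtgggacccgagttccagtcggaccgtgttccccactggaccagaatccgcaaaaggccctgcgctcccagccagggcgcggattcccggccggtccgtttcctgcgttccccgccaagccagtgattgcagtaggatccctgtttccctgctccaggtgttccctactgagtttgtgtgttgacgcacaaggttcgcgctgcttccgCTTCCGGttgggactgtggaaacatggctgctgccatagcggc
Mrps21: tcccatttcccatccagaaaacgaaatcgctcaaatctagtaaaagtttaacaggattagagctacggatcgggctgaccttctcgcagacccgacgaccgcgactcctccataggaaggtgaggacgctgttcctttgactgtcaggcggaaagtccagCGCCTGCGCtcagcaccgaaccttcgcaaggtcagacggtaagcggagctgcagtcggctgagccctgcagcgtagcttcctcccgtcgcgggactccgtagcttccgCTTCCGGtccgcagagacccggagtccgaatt
Mrpl37: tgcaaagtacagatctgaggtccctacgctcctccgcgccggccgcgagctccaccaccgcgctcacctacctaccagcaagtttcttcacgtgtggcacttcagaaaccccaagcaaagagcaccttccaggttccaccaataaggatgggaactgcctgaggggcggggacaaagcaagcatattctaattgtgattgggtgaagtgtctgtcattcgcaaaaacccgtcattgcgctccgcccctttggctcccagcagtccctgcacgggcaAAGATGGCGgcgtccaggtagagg

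The deposited values are in scaled reads per base, a signal that is already divided by length and scaled between libraries. They summed to 17244042 to 22163644 per library, of which 38.9% to 49.7% came from mitochondrially encoded genes. All 8 markers of ventricular cardiomyocytes were in the table and none was at 0. Markers of atrial cardiomyocytes (3 of 4 in the table) summed to 2144 to 5101 in GX MRL5, 796 to 6068 in GX DMSO, 1545 to 2503 in WT MRL5 and 1715 to 26227 in WT DMSO, with the highest sum in WT DMSO 2. Nppa made up most of these sums, and the other markers ranked the libraries differently. Myl7 and Myl4 were highest in WT DMSO 2 (3967 and 5676), then GX DMSO 3 (643 and 868) and GX MRL5 4 (133 and 265). In GX DMSO 4, with 6028 of Nppa, they were 0 and 40.1. Library names begin with 174 for the fourth GX MRL5 library and for WT DMSO 2 and 3, and with 148 for the other 11. GX DMSO 4, WT MRL5 1 and GX MRL5 1 also stood apart in the length of the transcripts they favoured, as described below. The comparisons below are given with and without the libraries that moved them most, and with the library set in the fit.

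The family spanned more between libraries of each GX group (0.438 in GX DMSO and 0.223 in GX MRL5, in log2 units) than between the 4 group means (0.182). The WT groups, with 2 and 3 libraries, each spanned less than the group means. For each gene the mean of log2(value + 1) over the 14 libraries was taken as 0, and the deviations were averaged over the 78 genes. In GX MRL5 the average deviation on this log2 scale was 0.11, -0.03, -0.04, -0.11 and 0.06 in libraries 1 to 5. In GX DMSO it was 0.02, 0.02, -0.12 and 0.32, in WT MRL5 it was 0.14 and -0.03, and in WT DMSO it was -0.04, -0.20 and -0.13. GX DMSO 4 stood above every other library, WT DMSO 2 was the lowest, and all 4 groups overlapped except that every WT MRL5 library lay above every WT DMSO library. The group means were -0.0017 ± 0.0873 in GX MRL5, 0.0626 ± 0.184 in GX DMSO, 0.0588 ± 0.120 in WT MRL5 and -0.120 ± 0.0803 in WT DMSO (SD over 5, 4, 2 and 3 libraries). The 3 libraries named 174 were, with GX DMSO 3, the 4 lowest of the 14. Among these were WT DMSO 2, GX DMSO 3 and GX MRL5 4, the libraries highest for the atrial markers Myl7 and Myl4. The part of atrial tissue in this was not tested. In whole ventricle a smaller share of a cell type and less RNA per cell cannot be told apart.

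Some cell type markers were high or low in the same libraries as the family, and others were not. The 8 ventricular cardiomyocyte markers summed to 595346 to 648139 in GX MRL5, 583452 to 721490 in GX DMSO, 617194 to 667235 in WT MRL5 and 560062 to 641754 in WT DMSO. GX DMSO 4 and WT MRL5 1 had the highest sums, as they had the highest family averages, and WT DMSO 2 had the lowest of both. The single markers did not all follow the sum. In WT MRL5 1 Tnnt2 was the highest of the 14 libraries (196953), while Pln was the lowest (43496). GX DMSO 4 was the highest for Myl2 (118073) but had 2854 of Ryr2, within a range of 2417 to 3826. WT DMSO 2 was the lowest for Ryr2 but had 56804 of Pln, within a range of 43496 to 61147. The 4 libraries with the lowest family averages, GX MRL5 4, GX DMSO 3, WT DMSO 2 and WT DMSO 3, were also the 4 with the lowest sums of these markers. The 5 fibroblast markers, all in the table and above 0, summed to 8179 to 11926 in GX MRL5, 7783 to 11232 in GX DMSO, 7085 to 11912 in WT MRL5 and 9151 to 14387 in WT DMSO. The 4 macrophage markers, all in the table and above 0, summed to 842 to 1368 in GX MRL5, 712 to 946 in GX DMSO, 1060.4 to 1115 in WT MRL5 and 843 to 1456 in WT DMSO. WT DMSO 2 had the highest sum of both lists, GX MRL5 4 came next in both, and WT MRL5 1 had the lowest fibroblast sum. Dcn made up most of the fibroblast sum and Cd163 most of the macrophage sum, and both were highest in WT DMSO 2 (12599 and 955). Other markers of these lists peaked elsewhere, Tcf21 in WT MRL5 1 (240), Col1a1 in GX DMSO 3 (89.1) and Adgre1 in GX DMSO 4 (107). Endothelial sums were lowest in WT DMSO 3 (9470) and WT DMSO 2 (9551), but GX DMSO 3 had 12610, against 12393 in GX DMSO 4 and 10654 in WT MRL5 1. Erythroid sums were highest in GX MRL5 5 (38022) and next in WT DMSO 2 (37138). The sum of Acta1 and Ckm was highest in GX DMSO 4 (68737) and lowest in WT DMSO 2 (34446). The part of cell makeup in the family's differences was not tested.

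**Figure D1:**
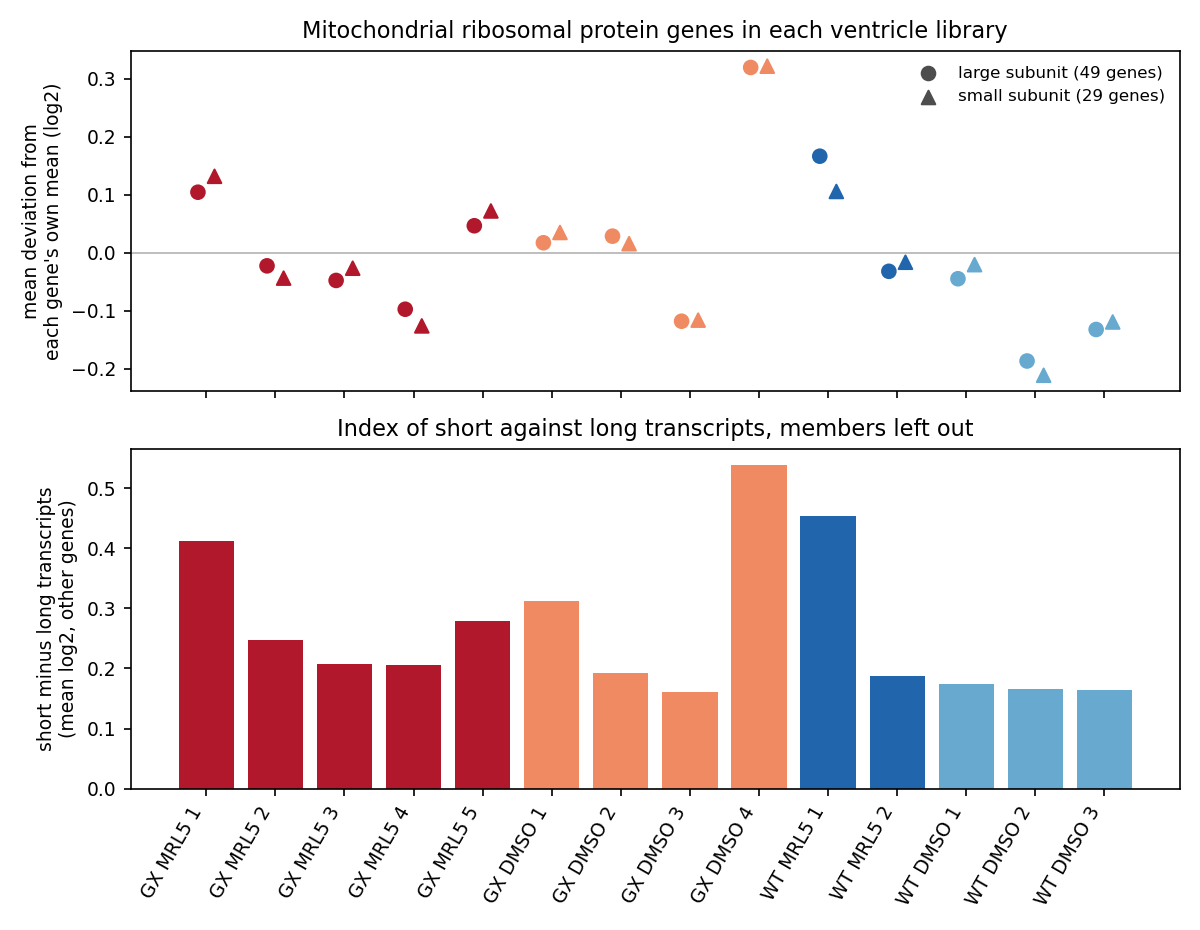
Mean deviation of the large-subunit (circles) and small-subunit (triangles) genes from each gene's own mean in each library, in log2 units (upper panel), and the index of short against long transcripts among all other genes (lower panel, bars, log2 units). GX DMSO 4 is highest in both panels, at 0.32 for the 78 genes and 0.54 for the index.

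Most members were high or low in the same libraries. GX DMSO 4 held the highest value of 45 of the 78 genes, although only 11.0% of all tested genes were highest there, and 77 of the 78 were above their own mean in it. WT MRL5 1 held the highest value of 20 more, against 15.2% of all genes. At the other end, WT DMSO 2 held the lowest value of 35 genes, against 8.30% of all genes, and 7 of the 78 were above their own mean in that library. In GX MRL5 4, GX DMSO 3 and WT DMSO 3, the numbers above their own mean were 11, 9 and 7. On the per-base scale, the means over the 14 libraries ran from 103 (Mrpl23) to 5566 (Mrpl42), with a median of 889.6. The ratio of the highest to the lowest library was between 1.24 (Mrps15) and 4.25 (Mrpl23), with a median of 1.52. The SD over the 14 libraries had a median of 0.172 on the log2 scale, against 0.175 for the 8042 tested genes that were at least as high as the lowest member.

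**Figure D2:**
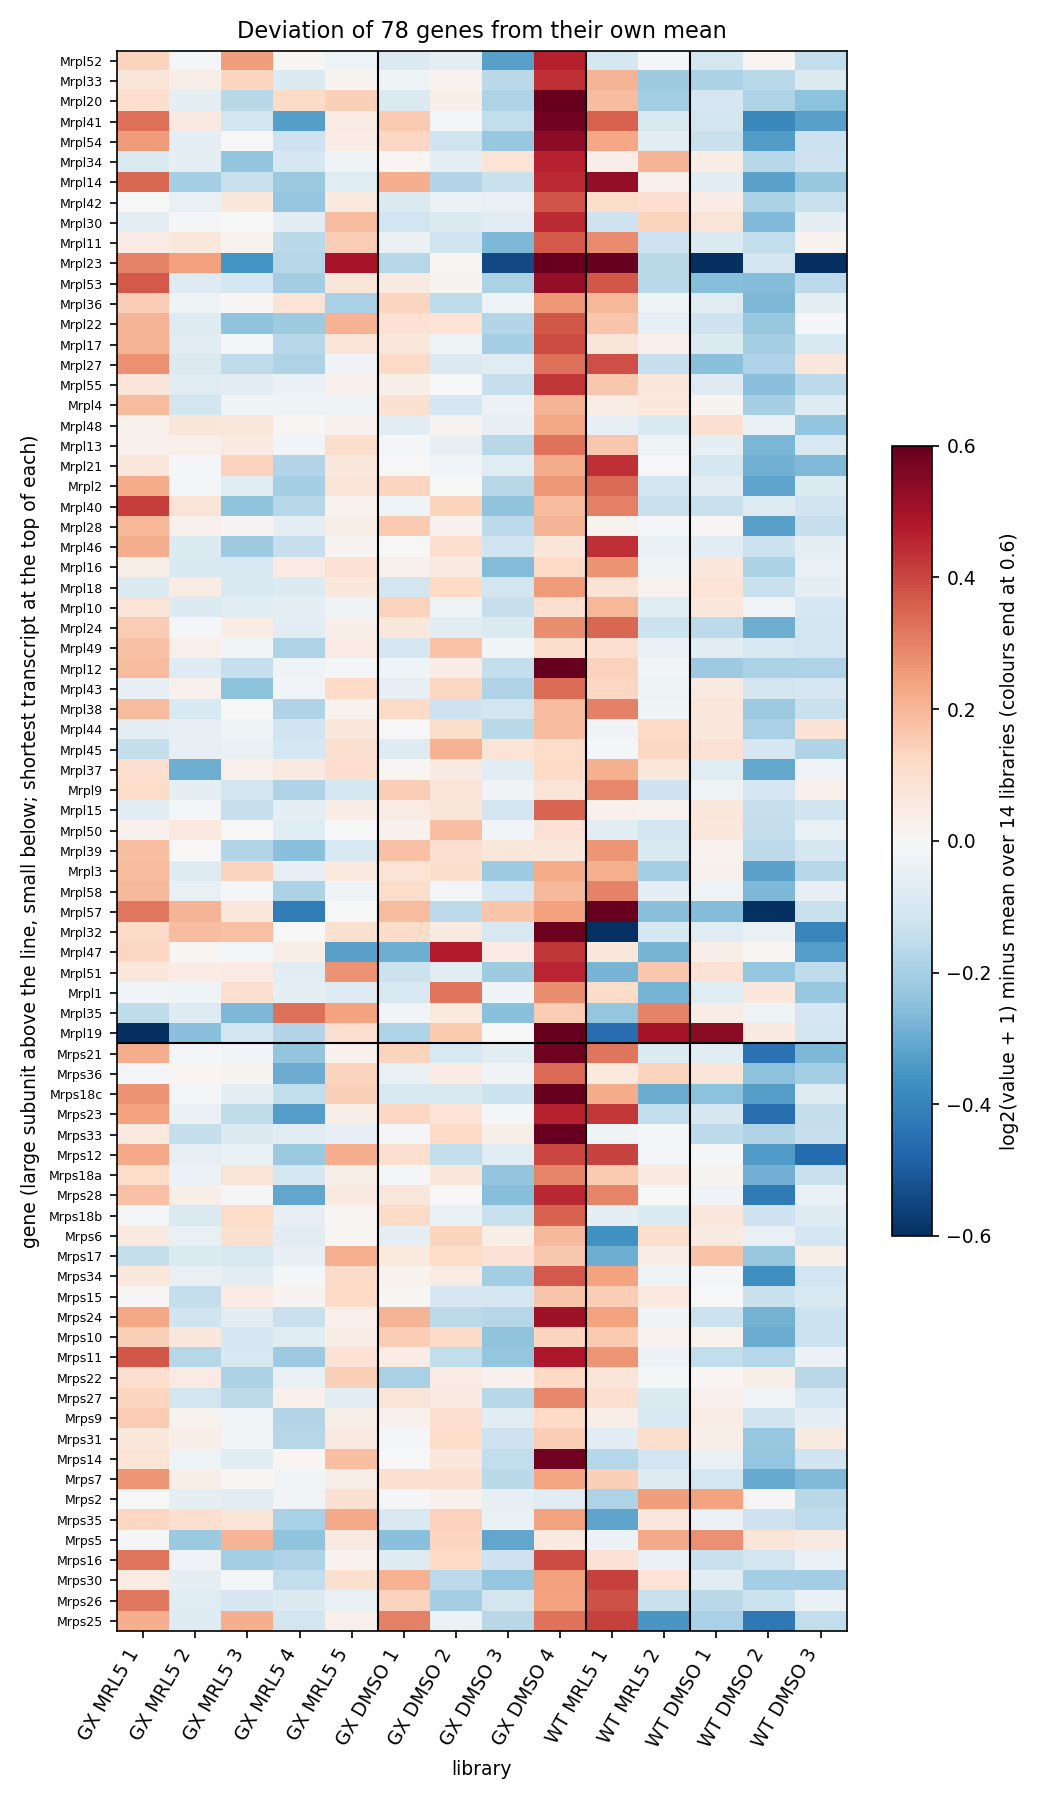
Deviation of each of the 78 genes from its own mean over the 14 libraries, in log2 units, with large-subunit genes above the horizontal line and small-subunit genes below it, each ordered from the shortest transcript. The column of GX DMSO 4 is red in 77 of 78 genes, and 7 of 78 genes are above their mean in WT DMSO 2.

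The large and small subunits followed each other from library to library. The mean log2 value of the 49 large-subunit genes minus that of the 29 small-subunit genes was 0.11 to 0.17 in GX MRL5, 0.12 to 0.15 in GX DMSO, 0.12 to 0.20 in WT MRL5 and 0.12 to 0.16 in WT DMSO. Its group means were 0.135 ± 0.0274 in GX MRL5, 0.138 ± 0.0125 in GX DMSO, 0.163 ± 0.0540 in WT MRL5 and 0.136 ± 0.0256 in WT DMSO (SD). The difference spanned 0.0882 over all 14 libraries, less than the 0.516 spanned by the family as a whole. GX DMSO 4, for example, deviated by 0.32 for the large subunit and by 0.32 for the small subunit. WT MRL5 1 was the library with the largest gap between them, at 0.17 for the large and 0.11 for the small subunit.

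The stalk of the large subunit, which recruits the translation factors, is built from Mrpl12 on a base of Mrpl10 and Mrpl11. Mrpl12 (chr11:120484613-120489065, ENSMUSG00000039640.7; gene positions are GENCODE M21 on GRCm38) had 3340.4, 2778, 2663, 2881 and 2911 in the GX MRL5 libraries, 2874, 3025, 2656 and 4594 in GX DMSO, 3225 and 2891 in WT MRL5 and 2519.6, 2568 and 2576 in WT DMSO. Every library of the other 3 groups was above every WT DMSO library, and GX DMSO 4 stood above all 13 others. Mrpl10 had 784, 702, 705, 715 and 732 in the GX MRL5 libraries, 818, 725, 675 and 797 in GX DMSO, 851 and 706 in WT MRL5 and 776, 734 and 692 in WT DMSO, and all 4 groups overlapped. Mrpl11 had 495, 501, 485, 427 and 531 in the GX MRL5 libraries, 466, 440.1, 397 and 618 in GX DMSO, 582 and 439.6 in WT MRL5 and 451, 432 and 486 in WT DMSO, again with overlap of all groups and the highest value in GX DMSO 4. Mrpl10, unlike the other two, was highest in WT MRL5 1.

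Several large-subunit genes are known from human disease of the heart. Mrpl3 and Mrpl44 are mutated in human cardiomyopathies, and Mrpl44 carries a fold of the RNase III family. Mrpl3 had 1608, 1335, 1546, 1359 and 1466 in the GX MRL5 libraries, 1488, 1516, 1209.7 and 1642 in GX DMSO, 1630.1 and 1227 in WT MRL5 and 1432, 1126 and 1248 in WT DMSO. Mrpl44 had 920.3, 923, 939, 879 and 997 in the GX MRL5 libraries, 957, 1033, 853 and 1087 in GX DMSO, 942 and 1037 in WT MRL5 and 997, 835 and 1014 in WT DMSO. Neither gene separated any of the 4 pairs of groups compared, and both were lowest in WT DMSO 2. Mrpl58, a peptidyl-tRNA hydrolase that became part of the large subunit and frees stalled chains, had 764, 647, 661, 585 and 654 in the GX MRL5 libraries, 719, 663, 621 and 763 in GX DMSO, 819 and 639 in WT MRL5 and 652, 554 and 643 in WT DMSO. It was highest in WT MRL5 1 and lowest in WT DMSO 2.

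Other large-subunit genes showed the same libraries at the ends. Mrpl21 (chr19:3282901-3292837), the homolog of a bacterial large-subunit protein, had 704, 671, 742, 595 and 704 in the GX MRL5 libraries, 674, 665, 640.3 and 786 in GX DMSO, 912 and 673 in WT MRL5 and 627, 552 and 560.0 in WT DMSO. Each of its GX DMSO and WT MRL5 values lay above all 3 WT DMSO values. Mrpl24, homologous to a bacterial protein near the mouth of the exit tunnel, had 1217, 1089, 1129.7, 1045 and 1127 in the GX MRL5 libraries, 1146, 1049, 1032 and 1331 in GX DMSO, 1393 and 1002 in WT MRL5 and 982, 896 and 1012 in WT DMSO, with every GX DMSO value above every WT DMSO value. Mrpl41, a protein that bacterial ribosomes lack, had 928, 766, 681, 587 and 765 in the GX MRL5 libraries, 824, 734, 667 and 1106 in GX DMSO, 943 and 690.4 in WT MRL5 and 685, 564 and 589.8 in WT DMSO. Its WT MRL5 values were above all WT DMSO values, while 1 GX DMSO value (667) fell inside the WT DMSO range. Mrpl14, which faces the small subunit, had 1300.3, 890.1, 933, 878 and 973 in the GX MRL5 libraries, 1191, 906, 933 and 1398 in GX DMSO, 1479 and 1044 in WT MRL5 and 976, 819.8 and 874 in WT DMSO, and its highest values were in WT MRL5 1, GX DMSO 4 and GX MRL5 1. Mrpl37 (chr4:107055874-107066868), a protein of mitochondrial ribosomes related in sequence to Mrps30, had 1075, 822, 1027, 1046 and 1079.7 in the GX MRL5 libraries, 1014, 1044, 962 and 1094 in GX DMSO, 1167 and 1051 in WT MRL5 and 957, 813 and 992 in WT DMSO. Both its WT MRL5 values were above the WT DMSO values, and GX MRL5 2 was low.

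A few large-subunit genes departed from the family. Mrpl32 (chr13:14608184-14613165) is made with a leader that the m-AAA protease removes before it can join the ribosome. It had 1359, 1426, 1415, 1253 and 1336 in the GX MRL5 libraries, 1352, 1301, 1174 and 1883 in GX DMSO, 821 and 1164 in WT MRL5 and 1190.1, 1219 and 951 in WT DMSO. Here WT MRL5 1, a high library for most of the family, was the lowest of the 14, and every GX MRL5 value was above both WT MRL5 values. Mrpl19 (chr6:81957851-81965958), whose median transcript of 5000 bases is the second longest of the family, had 67.4, 89.5, 98.3, 94.3 and 114 in the GX MRL5 libraries, 93.6, 119, 107 and 162 in GX DMSO, 77.3 and 151 in WT MRL5 and 156, 111 and 98.4 in WT DMSO. It was lowest in GX MRL5 1 and WT MRL5 1, both high libraries for most members. Mrpl34 (chr8:71464959-71465747) had 1174, 1203, 1059.9, 1158 and 1230.5 in the GX MRL5 libraries, 1256, 1201, 1319 and 1719 in GX DMSO, 1282 and 1437 in WT MRL5 and 1288, 1110.5 and 1146 in WT DMSO, and its GX MRL5 values lay below both WT MRL5 values.

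Mrpl23 had low and scattered values, and a pseudogene copy of it is also in the table. The sequences of the copies were not compared here. Mrpl23, a protein at the mouth of the exit tunnel, had 118, 114, 74.4, 84.9 and 135 in the GX MRL5 libraries, 84.9, 96.5, 65.5 and 152 in GX DMSO, 233 and 85.6 in WT MRL5 and 54.8, 88.8 and 59.5 in WT DMSO. The pseudogene Mrpl23-ps1, which the rule leaves out, had 784 to 1482 over the same libraries. Reads of the 2 copies may have been divided between them, so the values and folds of Mrpl23 are uncertain. WT MRL5 1, at 233, was the highest library for Mrpl23, and the other WT MRL5 library, at 85.6, fell within the WT DMSO range.

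**Figure D3:**
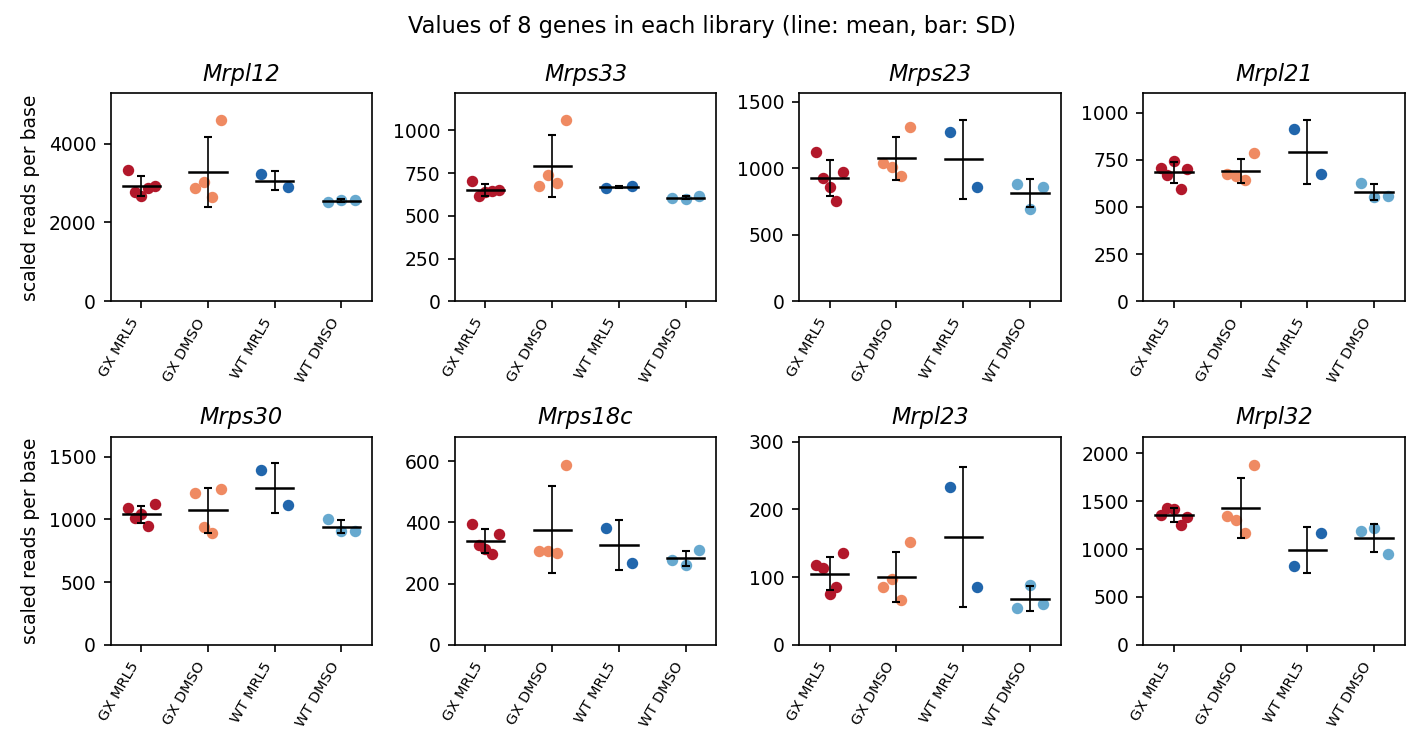
Values of 8 genes in scaled reads per base in each library of the 4 groups, with the mean (line) and SD (bar). The highest GX DMSO point in each of the 8 panels is GX DMSO 4, at 4594 for Mrpl12 and 589 for Mrps18c.

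In the small subunit, Mrps12 lies at the decoding centre and Mrps7 in the head, where the transfer RNA leaves. Mrps12 had 612, 503, 508, 447 and 606 in the GX MRL5 libraries, 557, 472, 498 and 688 in GX DMSO, 692 and 517 in WT MRL5 and 516, 412 and 378 in WT DMSO. Mrps7 had 1154, 983, 964, 949.9 and 985 in the GX MRL5 libraries, 1027, 1029, 857 and 1129.7 in GX DMSO, 1061 and 909 in WT MRL5 and 890.4, 779 and 799 in WT DMSO. For both genes all WT MRL5 values were above all WT DMSO values, while GX DMSO and WT DMSO overlapped. Mrps22, mutated in a human disease that includes cardiomyopathy, had 1038, 1001, 849, 939 and 1068 in the GX MRL5 libraries, 845, 1003, 984 and 1052 in GX DMSO, 1018 and 962 in WT MRL5 and 975, 991 and 863 in WT DMSO. Mrps16, mutated in a human mitochondrial disease, had 1417, 1115, 982, 995 and 1148 in the GX MRL5 libraries, 1073, 1229, 1038 and 1483 in GX DMSO, 1203 and 1102 in WT MRL5 and 1034, 1050.0 and 1103 in WT DMSO. Mrps34, which bacteria lack and which is mutated in human Leigh syndrome, had 1376, 1278, 1258, 1306 and 1424 in the GX MRL5 libraries, 1336, 1358, 1141 and 1701 in GX DMSO, 1554 and 1289 in WT MRL5 and 1304, 1019 and 1217 in WT DMSO. None of these last 3 separated any of the 4 pairs of groups compared.

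Mrps21, Mrps23 and Mrps33 were, with Mrps7, the small-subunit genes with the smallest p between GX and WT under DMSO. Mrps33 (chr6:39801804-39810988) had 704, 613, 638, 644 and 653 in the GX MRL5 libraries, 672, 736, 694 and 1061 in GX DMSO, 664 and 672 in WT MRL5 and 606, 597 and 613 in WT DMSO. Without GX DMSO 4 the GX DMSO values were 672, 694 and 736, still above all 3 WT DMSO values, which lay within 597 to 613. Mrps23 (chr11:88204388-88211507) had 1124, 925, 855, 755 and 975 in the GX MRL5 libraries, 1036, 1007, 941 and 1309 in GX DMSO, 1274 and 858 in WT MRL5 and 884, 695 and 861 in WT DMSO, and its GX DMSO values were all above the WT DMSO values. Mrps21 (chr3:95862634-95871519), a homolog of a bacterial small-subunit protein, had 1884, 1609, 1601, 1371 and 1649 in the GX MRL5 libraries, 1777, 1511, 1550.4 and 2428 in GX DMSO, 2018 and 1525 in WT MRL5 and 1543, 1189.7 and 1339.9 in WT DMSO. GX DMSO 2 lay inside the WT DMSO range of this gene, which has the shortest median transcript of the family (405 bases).

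Mammals have 3 relatives of 1 bacterial protein, Mrps18a, Mrps18b and Mrps18c, of which the first sits in the large subunit in solved structures and the other two in the small. Mrps18a had 1015, 917, 992, 875 and 965 in the GX MRL5 libraries, 933, 986, 799 and 1152 in GX DMSO, 1048 and 976 in WT MRL5 and 952, 770.1 and 858 in WT DMSO. Mrps18b had 368, 349, 400.3, 358 and 373 in the GX MRL5 libraries, 401, 360.3, 338 and 474 in GX DMSO, 356 and 349 in WT MRL5 and 388, 339 and 351 in WT DMSO. Mrps18c had 396, 327, 315, 296 and 362 in the GX MRL5 libraries, 307, 308, 300.4 and 589 in GX DMSO, 383 and 267 in WT MRL5 and 277, 261 and 310.5 in WT DMSO. GX DMSO 4 was the highest library for all 3, and in Mrps18c it stood alone at 589, against 300.4 to 308 in the other GX DMSO libraries. The groups of all 3 overlapped in the 4 pairs compared, except Mrps18a between WT MRL5 and WT DMSO.

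By structure, Mrps18a and Mrps30 belong to the large subunit despite their symbols, and Mrps36 may belong to neither. Mrps30 had 1086, 1007, 1041, 945 and 1120.4 in the GX MRL5 libraries, 1211, 939.6, 892 and 1243 in GX DMSO, 1392 and 1111 in WT MRL5 and 999, 909.6 and 908 in WT DMSO, with both WT MRL5 values above all WT DMSO values. Mrps36, now seen as a part of the alpha-ketoglutarate dehydrogenase complex and not of the ribosome, had 1021, 1041, 1044, 837 and 1131 in the GX MRL5 libraries, 1000.4, 1067, 1017 and 1307 in GX DMSO, 1074 and 1133 in WT MRL5 and 1083, 870.4 and 896 in WT DMSO. It was highest in GX DMSO 4 and lowest in GX MRL5 4. When Mrps30 and Mrps18a were counted with the large subunit and Mrps36 was left out, the large minus small difference spanned 0.115 over the 14 libraries, against 0.0882 by symbol.

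GX mice were compared with WT mice under DMSO, that is, without the compound. All GX DMSO libraries are named 148, while WT DMSO 2 and 3 are named 174. Genotype and library set therefore cannot be fully told apart in this comparison. The family leaned towards GX DMSO, with a median log2 fold change of 0.17 over the 78 genes, against -0.02 over all 14156 tested genes. The fold change was positive for 75 of the 78 genes and negative for 3, against 46.6% and 53.4% of all tested genes, and its median was 0.17 for the large and 0.17 for the small subunit. No member passed the test (limma with Benjamini-Hochberg adjustment over all tested genes, smallest adjusted p = 0.866), nor did any gene of the table, where percent called was 0. At an unadjusted p under 0.05, 11 of the 78 were higher and 0 lower in GX DMSO, against 2.95% and 2.72% of all tested genes. The groups did not overlap for 6 members, all higher in GX DMSO (Mrps33, Mrps23, Mrpl12, Mrpl21, Mrpl24 and Mrpl39), against 3.4% of all tested genes higher and 4.02% lower.

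Ordered by p, Mrps33 came first with a log2 fold change of 0.36 (SE 0.126), followed by Mrps7 at 0.29 (SE 0.105). Mrps21 stood at 0.40 (SE 0.161) and Mrps23 at 0.40 (SE 0.16). In the large subunit, Mrpl41 stood at 0.42 (SE 0.177), Mrpl12 at 0.33 (SE 0.147) and Mrpl21 at 0.25 (SE 0.114). Each of these 7 genes had an adjusted p of 0.866 by limma. The 2 other stalk genes had far smaller differences, 0.04 for Mrpl10 and 0.05 for Mrpl11. So had Mrps22 at 0.04 and Mrpl44 at 0.05. The family difference leaned on single libraries. Without GX DMSO 4 the median was 0.10 and 2 members were higher at an unadjusted p under 0.05, against 1.6% of all genes, and without WT DMSO 2 it was 0.13 and again 2 were, against 1.88% of all genes. Without GX DMSO 3 the median was 0.23 and 25 members were higher, against 3.71% of all genes. With the library set as a covariate the median was 0.08 and 1 member was higher and 1 lower, against 1.43% and 1.17% of all genes, and within the libraries named 148 it was 0.08 with 0 higher, against 1.29% of all genes, where WT DMSO is a lone library taken to vary like the other groups.

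MRL5 was compared with DMSO in WT mice, which lack the channel form the compound is known to inhibit. The family leaned towards WT MRL5, with a median log2 fold change of 0.18, against -0.0015 over all tested genes (0.17 for the large and 0.18 for the small subunit). It was positive for 66 of the 78 genes and negative for 12, against 49.7% and 50.3% of all tested genes. No member was called by limma (smallest adjusted p = 0.831), and percent called over all genes was 0. At an unadjusted p under 0.05, 8 members were higher and 0 lower in WT MRL5, against 2.9% and 2.74% of all tested genes. In 22 members both WT MRL5 values lay above all 3 WT DMSO values and in 0 below, against 9.56% and 9.66% of all tested genes.

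Mrpl21 had the smallest p with a log2 fold change of 0.44 (SE 0.136), and Mrps30 came next at 0.41 (SE 0.147). Mrpl23 had the largest difference, 1.08 (SE 0.404), under the doubt about its pseudogene and with overlapping groups. Mrps12 stood at 0.47 (SE 0.189), Mrpl14 at 0.49 (SE 0.205) and Mrpl37 at 0.27 (SE 0.126). Each of these 6 genes had an adjusted p of 0.831 by limma. The most negative differences were -0.19 for Mrpl32 and -0.14 for Mrpl19. With 2 WT MRL5 mice, 1 library decided the counts. Without WT MRL5 1 the median was 0.09 and 0 members were higher at an unadjusted p under 0.05, against 0.65% of all genes. Without WT MRL5 2 it was 0.29, with 24 members higher and 1 lower, but then 9.16% of all genes were higher and 8.34% lower, and limma called 58 genes but 0 members. Without WT DMSO 2 the median was 0.13 and 3 members were higher, against 2.37% of all genes. Both WT MRL5 libraries are named 148 and 2 of the 3 WT DMSO libraries 174. With the library set as a covariate the median was 0.10 and 1 member was higher, against 2.32% of all genes, and within the libraries named 148 it was 0.09 and again 1 was, against 1.89%, with a lone WT DMSO library. Where 1 WT MRL5 library was left out, the lone other was taken to vary like the other groups.

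In GX mice, where the compound meets its channel, the median difference between MRL5 and DMSO was small. The median log2 fold change of the family was -0.05, against 0.01 over all tested genes, with -0.05 for each subunit, and it was positive for 15 of the 78 genes and negative for 63, against 51.5% and 48.5% of all tested genes. No member was called by limma (smallest adjusted p = 0.999), and percent called over all genes was 0. At an unadjusted p under 0.05, 0 members were higher and 2 were lower, against 2.71% and 1.42% of all tested genes. In 0 members did GX MRL5 and GX DMSO not overlap, against 0.713% of all genes higher and 0.389% lower. The 2 genes were Mrps33 at -0.26 (SE 0.111) and Mrpl34 at -0.22 (SE 0.0994). Next came Mrpl39 at -0.17 (SE 0.0954), Mrpl19 at -0.36 (SE 0.22) and Mrpl9 at -0.14 (SE 0.0875), each of the 5 with an adjusted p of 0.999 by limma. The direction of the family turned without GX DMSO 4, where the median was 0.02, and without GX DMSO 3 it was -0.12. With the library set as a covariate it was -0.02, and 1 member was lower at an unadjusted p under 0.05, against 1.62% of all genes.

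Mrpl39 and Mrpl9 show how these values lay. Mrpl39, which resembles a threonyl-tRNA synthetase in part, had 975, 861, 762, 723 and 805 in GX MRL5, against 973, 921, 901 and 899 in GX DMSO. Mrpl9, homologous to a bacterial large-subunit protein, had 1862, 1653, 1598, 1514 and 1601 in GX MRL5, against 1911, 1819.7, 1699 and 1815 in GX DMSO. In both genes the other 4 GX MRL5 libraries lay below the GX DMSO range, while GX MRL5 1 lay above it for Mrpl39 and inside it for Mrpl9.

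Under MRL5, GX mice were compared with WT mice. The median log2 fold change of the family was -0.08, against -0.0025 over all tested genes (-0.08 for the large and -0.04 for the small subunit), and it was positive for 21 of the 78 genes and negative for 57, against 49.4% and 50.6% of all tested genes. No member was called by limma (smallest adjusted p = 0.720), and percent called over all genes was 0. At an unadjusted p under 0.05, 1 member was higher and 0 lower in GX MRL5, against 3.6% and 2.99% of all tested genes. That member was Mrpl32 at 0.47 (SE 0.167). Next came Mrps30 at -0.26 (SE 0.135), Mrpl46 at -0.24 (SE 0.131), Mrpl34 at -0.22 (SE 0.124) and Mrpl14 at -0.34 (SE 0.188). Mrpl46, which resembles a nudix hydrolase in part, had 733, 595, 541, 571 and 636 in GX MRL5, against 853 and 613 in WT MRL5, so WT MRL5 2 lay inside the GX MRL5 range. The groups did not overlap for 5 members, higher in GX MRL5 for Mrpl32, Mrps14 and Mrpl48 and lower for Mrpl34 and Mrpl42, against 4.76% of all tested genes higher and 4.49% lower. Without WT MRL5 1 the median turned to 0.03 and without WT MRL5 2 it was -0.15. In the fit without WT MRL5 2, 3 members were higher and 12 lower at an unadjusted p under 0.05, against 7.18% and 7.74% of all genes. With the library set as a covariate the median was -0.06.

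The difference of the MRL5 differences between genotypes was tested as an interaction, the MRL5 fold in GX minus that in WT. Its median over the family was -0.25, against 0.02 over all tested genes, with -0.23 for the large and -0.25 for the small subunit, and it was positive for 8 of the 78 genes and negative for 70, against 52.2% and 47.8% of all tested genes. No member was called by limma (smallest adjusted p = 0.755), and percent called over all genes was 0. At an unadjusted p under 0.05, 0 members were positive and 8 negative, against 3.09% and 3.29% of all tested genes. Mrpl21 came first at -0.45 (SE 0.169), then Mrpl34 at -0.43 (SE 0.168), Mrpl14 at -0.63 (SE 0.255), Mrps23 at -0.58 (SE 0.238) and Mrps30 at -0.44 (SE 0.182). The 5 comparisons share their groups, so that the same GX DMSO 4, WT MRL5 1 and WT DMSO 2 values enter several of them. The interaction median was -0.13 without GX DMSO 4, -0.15 without WT MRL5 1 and -0.33 without WT MRL5 2, where 20 members were negative at an unadjusted p under 0.05, against 8.36% of all genes. With the library set as a covariate it was -0.13, with 0 members at an unadjusted p under 0.05, against 2.29% of all genes positive and 2.43% negative. Within the libraries named 148, with a lone WT DMSO library, the interaction median was -0.10.

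**Figure D4:**
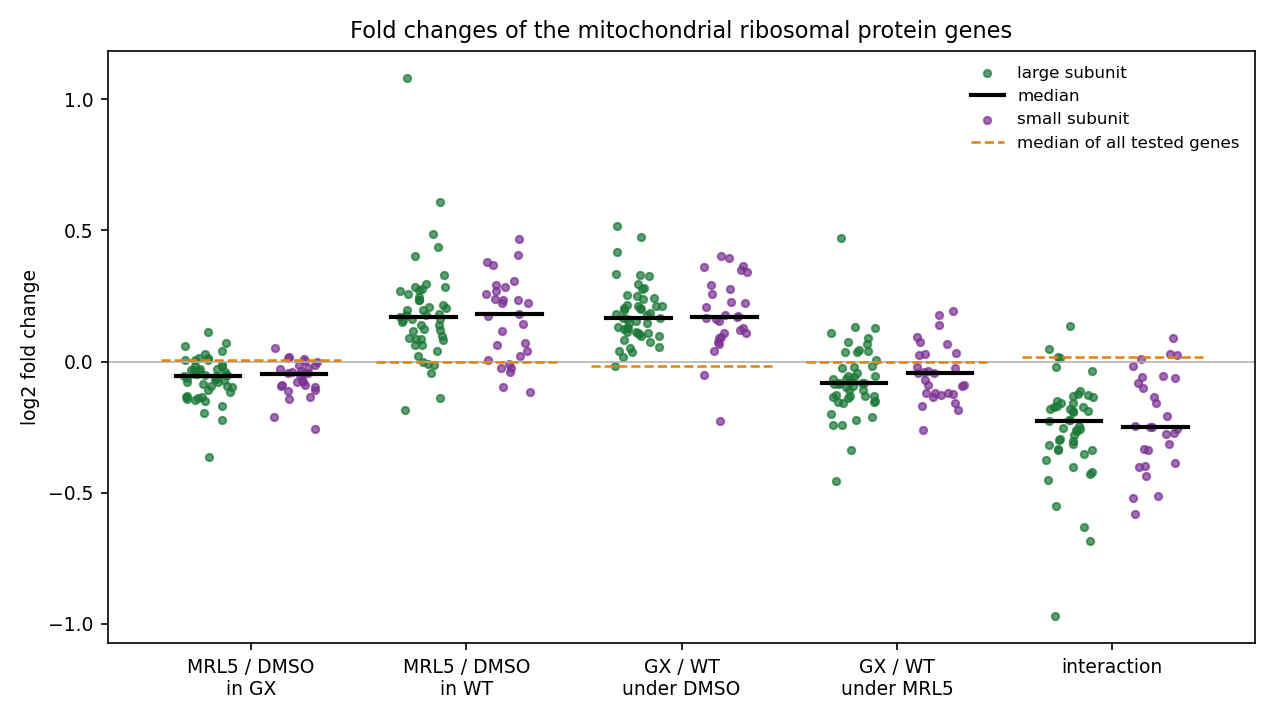
Log2 fold change of each gene (points, large subunit left and small subunit right) in the 4 comparisons and the interaction, with the median of each subunit (black line) and of all tested genes (dashed line). The medians of the subunits lie together in every column, at 0.17 and 0.17 between GX and WT under DMSO and at -0.23 and -0.25 for the interaction.

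Members of this family have short transcripts, and short transcripts moved with the same libraries. The median transcript of a member was 1051.5 bases long (405 to 6073), against 2241 over the tested genes, and 62 of the 78 were shorter than that median. An index of short against long transcripts was taken in each library as the mean log2 value of the shortest 20% of other genes (up to 1129 bases) minus that of the longest 20% (from 3911 bases). It was 0.41, 0.25, 0.21, 0.21 and 0.28 in GX MRL5 1 to 5, and 0.31, 0.19, 0.16 and 0.54 in GX DMSO 1 to 4. In WT MRL5 it was 0.45 and 0.19, and in WT DMSO it was 0.17, 0.17 and 0.16. The 3 libraries with the highest index, GX DMSO 4, WT MRL5 1 and GX MRL5 1, were also the 3 with the highest family average. The index did not order the low libraries, since WT DMSO 2 and WT DMSO 1 had nearly the same index and family averages of -0.20 and -0.04.

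Within the family the shift was greatest in the shortest members of GX DMSO 4 and WT MRL5 1, but it was not ordered by length throughout. In GX DMSO 4 the average deviation was 0.47 for the 26 shortest of the 78 genes (up to 811 bases), 0.24 for the 26 of middle length (up to 1420 bases) and 0.25 for the 26 longest. The 9 members of at least 3000 bases were all above their own mean there, with a median of 0.33. In GX DMSO 2 the order was the opposite, at -0.03, 0.02 and 0.08 from the shortest to the longest set. In WT MRL5 1 the same sets averaged 0.24, 0.15 and 0.05, and in WT DMSO 2 they averaged -0.25, -0.17 and -0.16. Between GX DMSO and WT DMSO the median log2 fold change was 0.22, 0.12 and 0.16 from the shortest to the longest set, against 0.07 for the shortest and -0.07 for the longest 20% of other genes. Between WT MRL5 and WT DMSO it was 0.22, 0.18 and 0.08, against 0.09 and -0.08 for the same other genes. With the index as a covariate the family median was 0.051 between GX and WT under DMSO, 0.027 for MRL5 in WT, -0.026 for MRL5 in GX, -0.031 between GX and WT under MRL5 and -0.066 for the interaction.

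**Figure D5:**
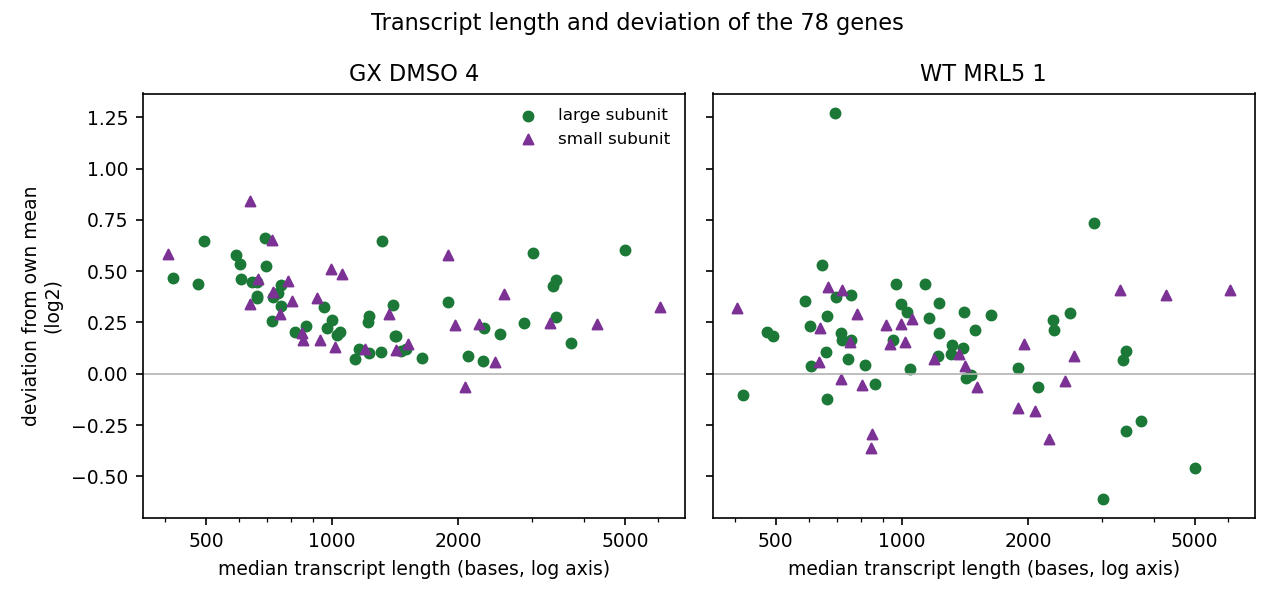
Deviation of each member from its own mean (log2 units) against its median transcript length (bases, log axis) in GX DMSO 4 (left) and WT MRL5 1 (right), with large-subunit genes as circles and small-subunit genes as triangles. In GX DMSO 4 the 26 shortest genes average 0.47 and the 26 longest 0.25, and in WT MRL5 1 they average 0.24 and 0.05.

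Members with and without the promoter motifs were set side by side, and their difference was not tested. Between GX DMSO and WT DMSO the median log2 fold change was 0.17 for the 42 members with at least 1 of the 3 motifs and 0.18 for the 27 with none. For MRL5 in WT these medians were 0.17 and 0.18, and for MRL5 in GX they were -0.07 and -0.04. Between GX and WT under MRL5 they were -0.09 and -0.06, and for the interaction, with the widest gap, -0.26 and -0.18. By motif, the median between GX DMSO and WT DMSO was 0.16 for NRF1, 0.19 for ETS and 0.16 for YY1. For MRL5 in GX the fold change was negative for all 16 members with the NRF1 letters, and for 63 of the 78 genes of the family. Mrps33 has the ETS letters and Mrps30 has none of the 3.

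Among other genes of mitochondrial translation, ribosomal proteins under other symbols had medians close to those of the family. The other lists had medians nearer 0. These comparisons were not tested, and the transcript lengths of the lists were not set beside those of the family. Lists of 89 tested genes in all were taken from textbook knowledge, with 5 mitoribosome proteins under other symbols, 32 assembly factors, 17 translation factors, 22 aminoacyl-tRNA synthetases and amidotransferase subunits, and 13 regulators of mitochondrial biogenesis. Between GX DMSO and WT DMSO the median log2 fold change was 0.16 for the mitoribosome proteins under other symbols, 0.09 for the assembly factors, 0.01 for the translation factors, -0.0027 for the synthetases and 0.03 for the regulators, against 0.17 for the 78 genes. At an unadjusted p under 0.05, 4 of the 89 were higher (Fastkd2, Gatb, Mpv17l2 and Chchd1) and 1 lower (Gatc), near the 2.95% and 2.72% of all tested genes, and limma called none. Chchd1, a small-subunit protein with no Mrp symbol, had 851, 917, 863 and 1656 in GX DMSO, against 777, 828 and 718 in WT DMSO (log2 fold change 0.41, SE 0.184). It thus showed the high GX DMSO 4 of the family, with all GX DMSO values above all WT DMSO values.

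For MRL5 in WT the 5 medians were 0.14, 0.07, 0.02, -0.0013 and -0.06 in the same order of lists. There 4 of the 89 were higher at an unadjusted p under 0.05 (Fars2, Mtrf1, Mrm2 and Ppargc1b) and 1 lower (Iars2), near the 2.9% and 2.74% of all tested genes. For MRL5 in GX the medians were -0.04, -0.03, -0.04, 0.01 and -0.02, with 0 higher and 2 lower, against 2.71% and 1.42% of all tested genes, and limma called none in either comparison. The 2 were Ptrh2, a peptidyl-tRNA hydrolase (log2 fold change -0.26, SE 0.0988), and Ppargc1a, the coactivator that drives mitochondrial biogenesis (log2 fold change -0.57, SE 0.248). Ppargc1a had 1412, 1109, 646, 985 and 1474 in GX MRL5, against 1626, 2177, 1598 and 1177 in GX DMSO. The groups overlapped, and the lowest GX DMSO value of Ppargc1a was that of GX DMSO 4, the library with the highest ribosomal protein genes.

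The authors' deposited table holds their own comparison of MRL5 with DMSO in each genotype. Of the 78 members, 0 have a q under 0.05 in GX in the authors' deposited table (smallest q = 0.9995) and 0 in WT (smallest q = 0.837), against 0% of all genes with a value in GX and 0.0358% in WT. At p under 0.05 the authors' deposited table had 0 members higher and 1 lower in GX, Mrpl34 with p = 0.0395, against 2.23% and 1.2% of all genes. In WT it had 10 members higher and 0 lower in the authors' deposited table, with Mrps30 first (p = 0.00226), against 2.19% and 1.97% of all genes. The median effect over the family in the authors' deposited table, on a natural log scale, was -0.04 in GX and 0.12 in WT, positive for 15 and 66 of the 78 genes.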

How the data were processed

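Polyadenylated RNA of 14 ventricles was sequenced in paired-end libraries (miRNeasy RNA), per the labels' protocols. Per the submitters' processing notes, kallisto and sleuth 0.3.0 were used with GRCm38. Per the file headers, the deposited values are a signal in scaled reads per base. The sources used here do not give the scaling, so read depth is unknown. The authors' deposited table also holds p-values, q-values and effects, which match natural log fold changes. Of its 14307 rows, 146 that repeated another row were left out, 2 of them members (Mrps10 and Mrps23). Symbols turned into dates (21) were restored from their IDs.

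Values were taken as log2(value + 1), which understates differences of low genes. The 14156 genes with a value of at least 1 in at least 2 libraries, all 78 members included, were fitted with limma 3.58.1 (trend and robust, two-sided) in R 4.3.3, with 1 mean per group and 10 residual degrees of freedom. P-values were adjusted over all tested genes by the Benjamini-Hochberg method, with a threshold of 0.05. The script was tested on simulated data. Transcript lengths are medians over protein-coding transcripts of GENCODE M21, and promoters are from RefSeq (GRCm38.p6). Groups follow the labels' genotype and treatment, and replicates were numbered in accession order, which pairs no mice.

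Members and lists were chosen with earlier results of these data known. Named in each comparison are the 5 members with the smallest p, those with an unadjusted p under 0.05 whose groups did not overlap, and 18 members named for their roles. The alternatives were other scalings (equal sums, median ratios), filters, a pseudocount of 0.1, the library set or the short-transcript index as a covariate, and each library left out. The fit without both WT DMSO 2 and GX DMSO 3, the 2 libraries with the highest level of the atrial marker Myl7, was chosen after seeing the data.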

Additional observations from a re-analysis of the deposited data

Results flagged for a closer look

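The GX MRL5 and GX DMSO values of 31 named members (62 groups of libraries) and of 2 averages over the family (4 groups) were checked. In 5 of the 66 groups a single library stood far from the others of its group. Chance would mark about 1 group in 20 if the groups were independent. They are not, since members move together by library and some were named for their p in these data. Mrps18c had 589 in GX DMSO 4, against 300.4 to 308 in the other GX DMSO libraries. Mrps33 had 1061 in the same library, against 672 to 736 in the others. Mrps7 had 1154 and Mrpl14 had 1300.3 in GX MRL5 1, against 949.9 to 985 and 878 to 973 in the rest of GX MRL5. Mrpl37 had 822 in GX MRL5 2, below 1027 to 1080 in the others of that group. GX DMSO 4 and GX MRL5 1 are the first and the third of the 14 libraries by the index of short against long transcripts, at 0.54 and 0.41, and the part of this in the values was not tested.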

How the results depend on the processing

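No member was called by limma under any of the alternatives run, and the smallest adjusted p of a member over them was 0.578 for MRL5 in GX, 0.0704 for MRL5 in WT, 0.689 between GX and WT under DMSO, 0.130 under MRL5 and 0.119 for the interaction. With the index of short transcripts added as a covariate, the family median for MRL5 in WT moved to 0.027, against 0.18, and that of the interaction to -0.066, against -0.25. Within the libraries named 148 the interaction median was -0.10. The cause was not tested. With equal column sums the median of all tested genes was -0.11 for GX against WT under DMSO and that of the members 0.07. At an unadjusted p under 0.05, 0 of the 78 were then higher and 1 lower, against 0.664% and 5.09% of all genes. Under all alternatives the family median ran from -0.12 to 0.02 for MRL5 in GX, 0.03 to 0.29 for MRL5 in WT, 0.05 to 0.23 for GX against WT under DMSO, -0.15 to 0.03 under MRL5 and -0.33 to -0.07 for the interaction. Without both WT DMSO 2 and GX DMSO 3 the medians were -0.12, 0.13, 0.19, -0.08 and -0.26 in that order. For GX against WT under DMSO, 8 members were then higher and 0 lower at an unadjusted p under 0.05, against 1.86% and 2.08% of all genes. In simulated data on 14156 genes, a log2 change of 1 was recovered for 87 of 100 genes for MRL5 in GX, 67 for MRL5 in WT, 74 between GX and WT under DMSO and 76 under MRL5, and smaller changes were not simulated. No paired analysis was possible because the labels give no replicate numbers that tie mice of different groups together.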
